A study of Mus musculus with 12 samples.

Results

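Pregnancy makes pancreatic islets grow, and the genes described here belong to the signalling axis that carries that response. They are Prlr and Ghr, the prolactin and growth hormone receptors, Stat5a, a transcription factor that these receptors activate, Cish, Socs1, Socs2 and Socs3, the feedback inhibitors of such signalling, and Tph1, Tph2 and Ddc, the enzymes that make serotonin. The 10 genes were taken as a fixed list and followed across the islets of 4 mouse genotypes. Each array probe was named through the RefSeq accession in the array design, and 9 of the 10 genes had at least 1 such probe, 13 probes in all among 17305 named genes. No probe carried the accession of Tph2, so that gene was not analysed here.

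The islets came from mice on a mixed C57BL/6 x Sv129 background, fed chow, at 4 weeks of age by the labels (the study's text gives a slightly older age and female mice). WT mice were the controls. PPARγ2KO mice lack the PPARγ2 isoform, ob/ob mice lack leptin and become obese and insulin resistant, and POKO mice lack both. These are deletions of the whole animal, so that no difference below can be assigned to the islet cells themselves. Islets were picked by hand after collagenase digestion, cultured overnight and pooled from 3 to 4 mice per array, and 3 arrays were run per genotype, 12 in all. All islets shared the overnight culture with serum.

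Prolactin and growth hormone bind receptors that have no kinase of their own. They work through the kinase JAK2, which phosphorylates STAT5. STAT5 then enters the nucleus and binds palindromic DNA motifs, among others at Cish and Socs2, and the proteins made from these genes shut the receptor off. Socs1 and Socs3 do the same for interferons and for cytokines of the interleukin-6 family and leptin. In islets of pregnant mice this axis is known for raising Tph1 strongly, and serotonin then acts on beta cell proliferation.

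The STAT5 motif was looked for in the promoters of the listed genes (RefSeq, mouse build GRCm38.p6, from 250 bases before to 50 bases after an annotated start). The letters searched were TTCNNNGAA, which read the same on both strands. Windows were at hand for 9 of the 10 genes, 15 windows in all, and 3 of them held the motif. The gene without a window was Socs2, so its promoter was not searched. Of 32851 mouse promoters of the same length 8.3% held it, and 0.457% held it at least 2 times. Cish and Socs3 are shown because they are the feedback genes whose windows held it. The Cish window (plus strand, chr9:107296409-107296708) held 2 matches, starting at bases 1 and 12 of the annotated transcript. The Socs3 window (minus strand, chr11:117969317-117969616) held 1, starting at base -154 relative to the start. The third was in 1 of the 3 Prlr windows. Capitals mark the matches, which are a description of letters and not of binding.
Cish: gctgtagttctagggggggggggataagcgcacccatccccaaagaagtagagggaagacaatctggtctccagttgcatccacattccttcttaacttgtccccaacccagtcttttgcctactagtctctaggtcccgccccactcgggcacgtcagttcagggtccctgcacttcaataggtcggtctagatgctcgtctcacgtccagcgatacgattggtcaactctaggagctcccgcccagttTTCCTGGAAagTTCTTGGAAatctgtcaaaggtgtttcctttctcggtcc
Socs3: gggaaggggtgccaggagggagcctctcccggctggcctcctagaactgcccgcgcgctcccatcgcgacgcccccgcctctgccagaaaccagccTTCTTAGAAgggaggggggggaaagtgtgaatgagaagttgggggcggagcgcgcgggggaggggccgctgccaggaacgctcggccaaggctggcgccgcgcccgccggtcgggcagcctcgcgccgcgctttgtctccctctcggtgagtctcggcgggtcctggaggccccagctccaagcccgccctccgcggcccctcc

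The values below are log2 signals after quantile normalization, in which a difference of 1 is a doubling. A probe was called different when its Benjamini-Hochberg adjusted p, from 1 limma fit of all 12 arrays and 41174 probes, was at most 0.05. Where a gene had several probes the brightest stood for it. Of the 9 measured genes 8 were well above background on all 12 arrays. The exception was Tph1. Fewer cells of a type and less RNA per cell cannot be told apart in whole islets.

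As a check of the labels, the mean Pparg signal was 7.10 in PPARγ2KO and 6.89 in POKO islets, against 8.90 in WT and 9.31 in ob/ob islets. The median raw signal per array ran from 20.9 to 40.6 and was lower in WT (20.9 to 27.0) than in ob/ob islets (30.7 to 40.6). Each slide carried 1 array of every genotype, always in the same position, so that position and genotype cannot be told apart. WT replicate 3 and PPARγ2KO replicate 3 correlated less with their own genotype (mean r over all probes 0.976 and 0.978) than with the other arrays (0.977 and 0.980).

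In ob/ob against WT islets 1 of the 9 genes was called, Socs2, which fell. Of all probes 11.1% were called in this comparison, so that the share among the listed genes was not above the background. At an unadjusted p under 0.05 there were 6 of 9 genes (31.1% of all probes), and in 5 of 9 genes the arrays of both genotypes did not overlap (41.2% of all probes). The 9 genes went both ways, and their median difference (0.69, against -0.06 over all named genes) was the value of Tph1 itself, which was above background on 1 of 12 arrays. In POKO against WT islets 0 of 9 genes were called (0.194% of all probes), 3 had an unadjusted p under 0.05 (16.4%) and 3 did not overlap (34.8%). In PPARγ2KO against WT islets 0 of 9 were called by limma (0% of all probes) and 0 had an unadjusted p under 0.05 (9.37%). The count of 1 in ob/ob against WT rested on single arrays. It was 6 without WT replicate 3, 2 without any one of the PPARγ2KO arrays, and 0 without WT replicate 1 or 2, ob/ob replicate 2 or 3, or POKO replicate 2 or 3.

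**Figure D1:**
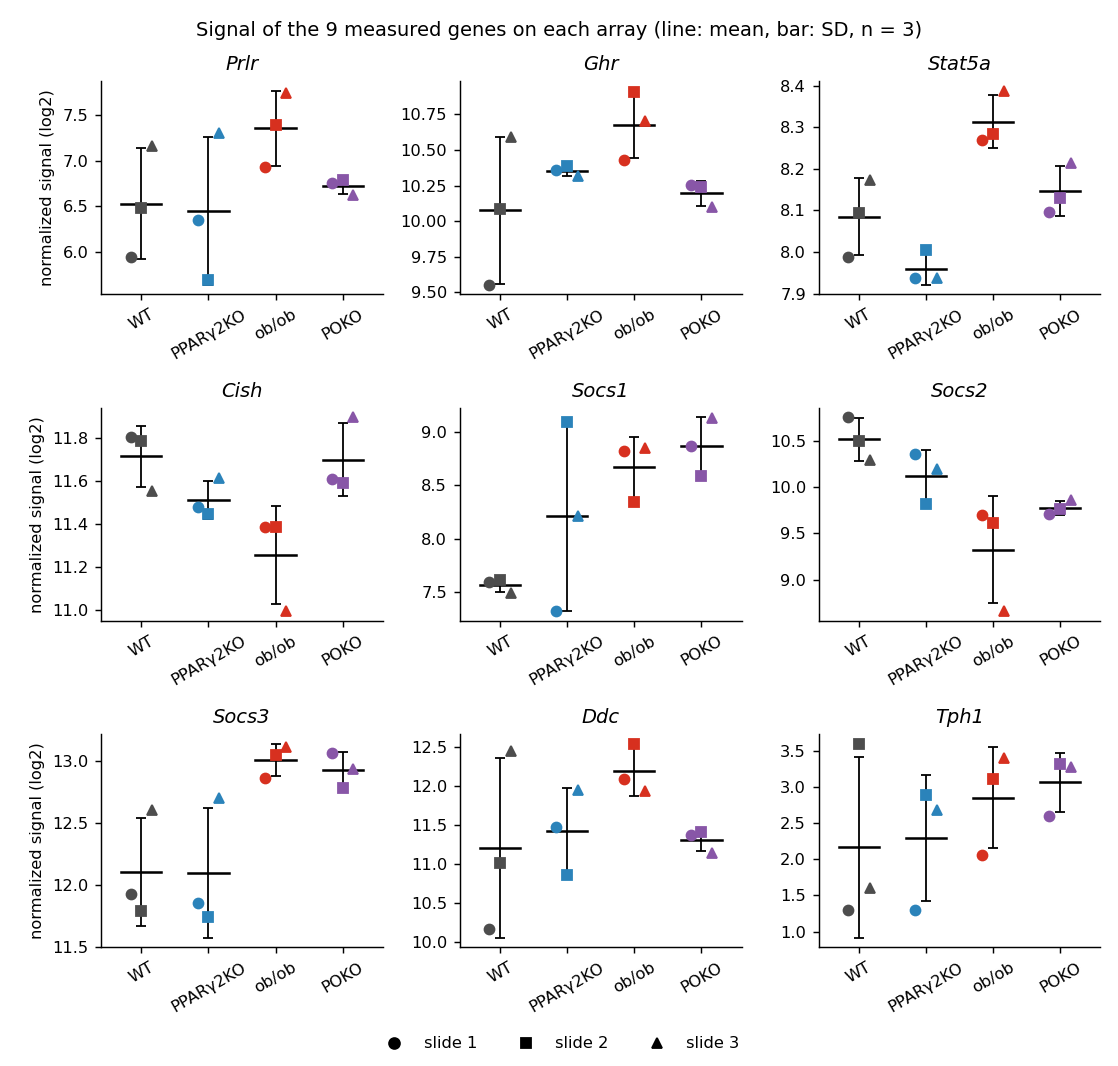
Normalized log2 signal of the 9 measured genes on each of the 12 arrays, 1 panel per gene with its own vertical axis, by genotype. Symbols give the slide, horizontal lines the mean and bars the SD of 3 arrays; Socs2 lies at 10.29 to 10.76 in WT and at 8.66 to 9.70 in ob/ob islets.

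Prlr, the receptor through which prolactin and placental lactogen act, varied as much within WT islets as between genotypes. Its signal was 5.94, 6.49 and 7.16 in the 3 WT arrays, 6.35, 5.70 and 7.30 in PPARγ2KO, 6.93, 7.39 and 7.74 in ob/ob, and 6.75, 6.79 and 6.63 in POKO islets. The ob/ob arrays overlapped those of WT and lay above all POKO arrays. The ob/ob mean exceeded WT by 0.82 (95% confidence interval -0.12 to 1.76, limma adjusted p = 0.214), and it did so within each slide, by 0.98, 0.90 and 0.59. POKO exceeded WT by 0.19 (-0.75 to 1.13, adjusted p = 0.842), with opposite signs on different slides (0.81, 0.30 and -0.53).

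Ghr, the growth hormone receptor, had 3 probes. By the brightest its signal was 9.55, 10.09 and 10.59 in WT, 10.36, 10.38 and 10.32 in PPARγ2KO, 10.43, 10.90 and 10.70 in ob/ob, and 10.25, 10.24 and 10.10 in POKO islets. WT covered a range of about 1 and overlapped ob/ob, whereas POKO and PPARγ2KO were tight. The difference of ob/ob from WT was 0.60 ± 0.23 (SE, adjusted p = 0.105). The other probes carry the accession of another Ghr transcript record, and both were called, at 0.88 (adjusted p = 0.0482) and 0.77 (adjusted p = 0.0469), with no overlap of the arrays. The mean of the 3 probes gave 0.75 (adjusted p = 0.055). All 3 probes thus pointed upwards and lay on either side of the threshold. Without WT replicate 3 the brightest probe was called too (0.86, adjusted p = 0.0162). POKO lay below ob/ob on all 3 slides, by 0.18 to 0.67 on the brightest probe, with no overlap (difference -0.48, adjusted p = 0.542).

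Stat5a, 1 of the 2 STAT5 genes, varied little. Its signal was 7.99, 8.09 and 8.17 in WT, 7.94, 8.00 and 7.94 in PPARγ2KO, 8.27, 8.28 and 8.39 in ob/ob, and 8.10, 8.13 and 8.21 in POKO islets. Every ob/ob array lay above every array of the other genotypes. The excess over WT was 0.23 (0.06 to 0.40, adjusted p = 0.074), and it was 0.28, 0.19 and 0.22 within the slides. Over the obese genotypes together (ob/ob and POKO, 6 arrays, against WT and PPARγ2KO, 6 arrays) Stat5a rose by 0.21 ± 0.05 (SE, adjusted p = 0.0425), which is 1.16-fold, with arrays of the obese and the lean genotypes overlapping. POKO taken alone differed from WT by 0.06 (-0.11 to 0.23, adjusted p = 0.694) and overlapped it. The partner of Stat5a, Stat5b, a close copy with its own probe, rose by 0.47 in obese against lean islets (adjusted p = 0.0444).

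Among the 4 feedback inhibitors, Socs2, which restrains growth hormone signalling, was called in ob/ob against WT islets. Its signal was 10.76, 10.50 and 10.29 in WT, 10.36, 9.82 and 10.19 in PPARγ2KO, 9.70, 9.62 and 8.66 in ob/ob, and 9.71, 9.76 and 9.86 in POKO islets. All 6 arrays of the obese genotypes lay below all WT arrays, and PPARγ2KO lay between, overlapping both WT and POKO. In ob/ob islets Socs2 was 2.28-fold lower than in WT (log2 difference -1.19 ± 0.27, SE, adjusted p = 0.0311), and it was lower within each slide, by -1.05, -0.89 and -1.63. The lowest value by far came from ob/ob replicate 3. Without it the difference was -0.86 (adjusted p = 0.0624). The call was also lost without WT replicate 1 (0.093) or 2 (0.102), ob/ob replicate 2 (0.0679) and POKO replicate 2 (0.0506) or 3 (0.0509), each given as the adjusted p, and with the ob/ob and WT arrays alone (0.12). In POKO islets the difference from WT was -0.74 (-1.34 to -0.14, adjusted p = 0.212).

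Cish, a classical STAT5 target whose promoter is shown above, had signals of 11.80, 11.79 and 11.55 in WT, 11.48, 11.45 and 11.61 in PPARγ2KO, 11.39, 11.39 and 11.00 in ob/ob, and 11.61, 11.59 and 11.89 in POKO islets. The ob/ob arrays were the 3 lowest of the 12, below WT, PPARγ2KO and POKO alike. The difference from WT was -0.46 (-0.76 to -0.15, adjusted p = 0.0581), with -0.42, -0.40 and -0.56 within the slides. It passed the threshold without WT replicate 3 (-0.54, adjusted p = 0.0355). POKO differed from WT by -0.02 (-0.32 to 0.29, adjusted p = 0.97) and from ob/ob by 0.44 (0.14 to 0.75, adjusted p = 0.531).

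Socs3, which is induced by STAT3 and blocks leptin and interleukin-6 signalling, was higher in the obese genotypes. Its signal was 11.92, 11.79 and 12.60 in WT, 11.85, 11.74 and 12.70 in PPARγ2KO, 12.86, 13.05 and 13.11 in ob/ob, and 13.06, 12.78 and 12.93 in POKO islets. All 6 arrays of the obese genotypes lay above all 6 of the lean ones, although the slide 3 arrays of both lean genotypes came close. Socs3 rose by 0.86 ± 0.19 (SE, adjusted p = 0.0329) in obese against lean islets, 1.82-fold. The slides gave 1.07, 1.15 and 0.37. Taken alone, ob/ob exceeded WT by 0.90 (adjusted p = 0.0629) and POKO exceeded WT by 0.82 (adjusted p = 0.186). The first of these passed without WT replicate 3 (1.15, adjusted p = 0.02) and without PPARγ2KO replicate 3 (0.90, adjusted p = 0.0324).

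Socs1, the main inhibitor of interferon signalling, was 7.60, 7.61 and 7.49 in WT, 7.32, 9.09 and 8.21 in PPARγ2KO, 8.82, 8.34 and 8.84 in ob/ob, and 8.87, 8.59 and 9.13 in POKO islets. WT was tight and low, the obese genotypes were high, and PPARγ2KO spanned the whole range. The excess over WT was 1.10 in ob/ob (0.26 to 1.93, adjusted p = 0.0814) and 1.30 in POKO islets (0.46 to 2.13, adjusted p = 0.141), with no overlap in either and the same sign on every slide. In obese against lean islets it was 0.88 (adjusted p = 0.066), and without PPARγ2KO replicate 2 it was 1.09 and was called (adjusted p = 0.0155). Without that array Socs1 was called in ob/ob against WT too (1.09, adjusted p = 0.0319), and without PPARγ2KO replicate 1 likewise (1.10, adjusted p = 0.0358).

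In obese against lean islets 3 of the 9 genes were therefore called (9.04% of all probes), Socs3 and Stat5a higher and Socs2 lower by 0.77 on the log2 scale (-1.19 to -0.34, adjusted p = 0.0389). At an unadjusted p under 0.05 there were 4 (28.2%). The lowest WT value of Socs2 exceeded all obese values, but PPARγ2KO replicate 2 (9.82) fell below the highest POKO value (9.86). These calls lay close to the threshold. Socs2 lost its call when any one of 8 arrays was left out (all but WT replicate 3, PPARγ2KO replicate 2 and ob/ob replicates 1 and 3), Socs3 with 9 (all but WT replicate 3, PPARγ2KO replicate 3 and ob/ob replicate 1) and Stat5a with 10 (all but WT replicate 3 and ob/ob replicate 1). The adjusted p values were then at most 0.0926, 0.0813 and 0.0931, while the fold changes kept their direction (Socs2 -0.87 to -0.61, Socs3 0.77 to 1.01, Stat5a 0.18 to 0.23). Stat5a was not called either with the 75th percentile shift (adjusted p = 0.0825) or with dim probes filtered out (0.0855).

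**Figure D2:**
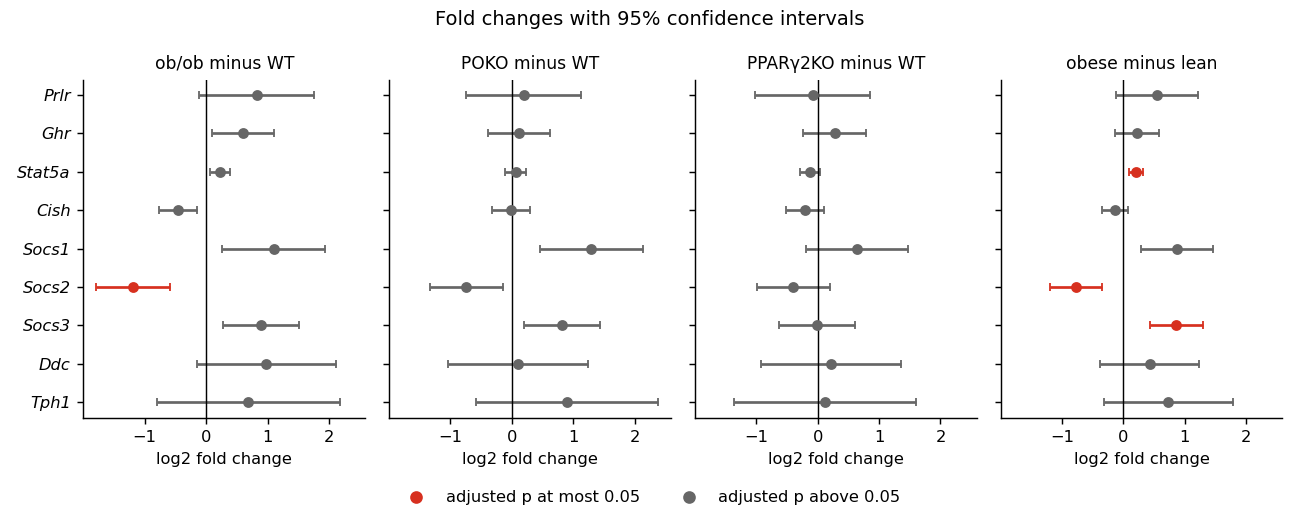
Log2 fold changes (points) with 95% confidence intervals (bars) of the 9 genes in 4 comparisons, from the fit of all 12 arrays. Red marks an adjusted p of at most 0.05: Socs2 in ob/ob against WT, and Socs2, Socs3 and Stat5a in obese against lean islets.

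Tph1, which catalyses the limiting step of serotonin synthesis, was hardly measurable. The brighter of its 2 probes read 1.30, 3.60 and 1.60 in WT, 1.29, 2.90 and 2.69 in PPARγ2KO, 2.06, 3.11 and 3.40 in ob/ob, and 2.60, 3.32 and 3.28 in POKO islets. It was well above background on 1 array only, ob/ob replicate 3, and the other probe on none. The arrays of all genotypes overlapped. The highest value was that of WT replicate 2. These arrays therefore do not show Tph1 at a level that could be compared between genotypes.

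Ddc, the decarboxylase that completes serotonin and dopamine synthesis, was by contrast well above background throughout. Its signal was 10.17, 11.02 and 12.45 in WT, 11.48, 10.86 and 11.95 in PPARγ2KO, 12.09, 12.55 and 11.94 in ob/ob, and 11.38, 11.41 and 11.14 in POKO islets. The 3 WT arrays spread over more than 2 units and enclosed all others but 1. The excess of ob/ob over WT was 0.98 (-0.16 to 2.12, adjusted p = 0.221), and it changed sign between slides (1.92, 1.53 and -0.51). Without WT replicate 3 it was 1.60 and was called (adjusted p = 0.0189). POKO lay below ob/ob on every slide, by 0.71, 1.13 and 0.80, with no overlap (difference -0.88, adjusted p = 0.62). The second Ddc probe gave 0.80 for ob/ob against WT (adjusted p = 0.371) and -0.70 for POKO against ob/ob (adjusted p = 0.734).

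The comparison of POKO with ob/ob islets asks what the loss of PPARγ2 adds to leptin deficiency. None of the 9 genes was called by limma (0.00486% of all probes), and 1, Cish, had an unadjusted p under 0.05 (9.28%). The arrays of both genotypes did not overlap in 6 of the 9 genes (17.7% of all probes). Prlr, Ghr, Ddc and Stat5a were lower in every POKO array than in every ob/ob array, and Cish and Socs2 were higher. This comparison and that of ob/ob with WT share the ob/ob arrays, so that high or low ob/ob values enter both. Socs1 and Socs3 overlapped between POKO and ob/ob (0.20, -0.64 to 1.03, and -0.08, -0.70 to 0.54). In POKO against PPARγ2KO islets 0 of 9 were called (0.00971%), and 2, Socs3 and Stat5a, had an unadjusted p under 0.05 (11.1%). The interaction, which asks whether the loss of PPARγ2 acts differently in the obese and the lean, was called for 0 of 9 genes (0%), with 2 at an unadjusted p under 0.05 (13.9%). These were Cish (0.64, 0.21 to 1.07, adjusted p = 0.271) and Ghr (-0.76, -1.48 to -0.04, adjusted p = 0.339).

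**Figure D3:**
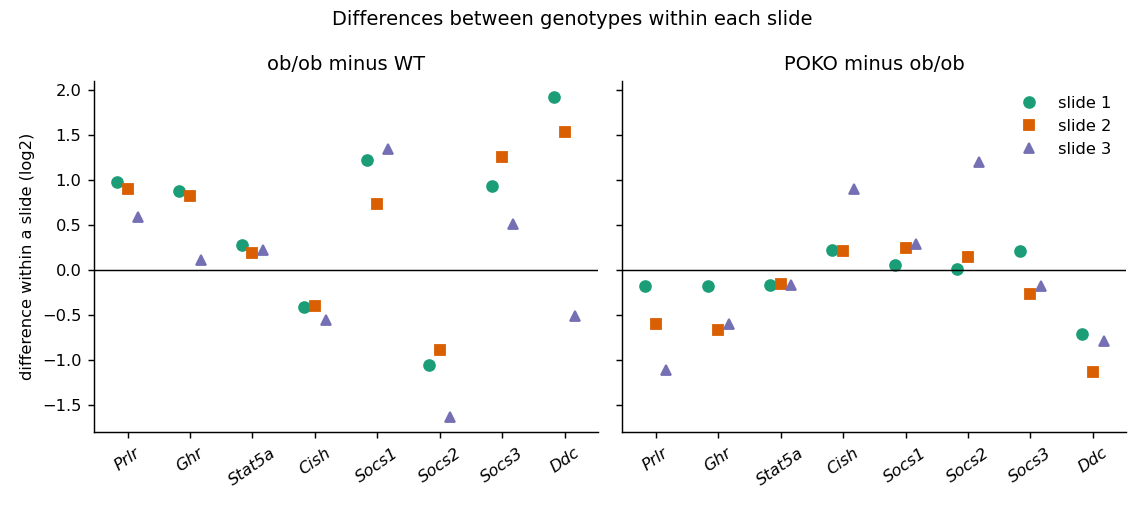
Differences in log2 signal between the 2 arrays of each slide, for the 8 genes above background on all arrays; left, ob/ob minus WT, and right, POKO minus ob/ob. On the left Socs2 and Cish lie below 0 and Socs1 and Socs3 above 0 on all 3 slides, while Ddc changes sign.

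The other genes of these pathways were read from 3 lists that do not contain the genes above. Of 36 genes of leptin, prolactin, growth hormone and cytokine JAK-STAT signalling, all measured, 8 rose and 1 fell in ob/ob against WT islets (median difference 0.15), and 9 rose and 0 fell in obese against lean islets, beside 11.1% and 9.04% of all probes called in these comparisons. In POKO against WT islets limma called 0, with 9 higher and 0 lower at an unadjusted p under 0.05 (16.4% of all probes). Among the 8 that rose in ob/ob islets were Jak3, Stat4, Ptpn1, Ptpn6, Il2rg, Il7r and Ifngr1, and the one that fell was Socs4. Ifngr1, an interferon gamma receptor chain, rose by 0.77 in ob/ob islets (adjusted p = 0.027). Il2rg, the receptor chain shared by several interleukins, rose by 3.05 (adjusted p = 0.0277), with 1 of 3 WT arrays well above background. Il7r, the interleukin-7 receptor of lymphocytes, rose by 2.41 (adjusted p = 0.04) and was below background on all WT arrays. The size of its rise is therefore uncertain, and with normexp background correction it was 0.27 and not called. Jak2, the kinase of the prolactin and growth hormone receptors, differed by 0.26 (adjusted p = 0.3) in ob/ob against WT and by 0.40 (adjusted p = 0.0579) in obese against lean islets. Stat5b differed by 0.56 in ob/ob against WT islets (adjusted p = 0.0611). The probe of Lepr, the leptin receptor, was well above background on 2 of 12 arrays.

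Of 28 genes of serotonin handling and reception 26 were measured, and 10 were above background on all arrays. In ob/ob against WT islets 1 rose and 3 fell (median -0.15), which is near the share of all probes called (11.1%). In POKO against WT islets limma called 0, with 1 higher and 4 lower at an unadjusted p under 0.05, again near the background (16.4%). The one that rose was Gch1, which makes the cofactor of tryptophan hydroxylase, by 0.47 (adjusted p = 0.0494), a call held in 5 of 22 alternatives. Htr2b, the receptor through which serotonin acts on beta cell growth in pregnancy, fell by 1.60 on the log2 scale (adjusted p = 0.0415), from 6.05, 4.75 and 5.12 in WT to 4.51, 3.18 and 3.44 in ob/ob islets, where it was well above background on 2 of 3 arrays. Htr2b in POKO islets (4.38, 5.24 and 4.84) overlapped WT. Htr1f, another serotonin receptor, was below background on all ob/ob arrays and on all but 1 WT array, so that no fold is given although it passed the test (adjusted p = 0.0159). Htr2c passed the test as well, but had no WT or ob/ob array well above background. Htr1d was not well above background on a single array, no probe was assigned to Htr3a, and Slc6a4, the serotonin transporter, differed by -0.29 (adjusted p = 0.685) and changed sign when arrays were scaled to the 75th percentile. With that scaling, and with normexp background correction, 0 genes of this list were called.

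Of 28 genes known to respond to pregnancy in beta cells 26 were measured. In ob/ob against WT islets 5 rose and 1 fell (median 0.11), beside 11.1% of all probes called. In POKO against WT islets limma called 0, with 8 higher and 3 lower at an unadjusted p under 0.05 (16.4% of all probes). Tnfrsf11b, which encodes osteoprotegerin, rose by 2.11 (adjusted p = 0.0124), from 6.34, 6.73 and 6.81 to 8.26, 8.63 and 9.32. Mki67, the proliferation marker Ki-67, rose by 1.81 (adjusted p = 0.018), from 5.75, 5.77 and 6.73 to 8.00, 8.00 and 7.68. Ffar2, a receptor for short chain fatty acids, rose by 1.57 (adjusted p = 0.0204), and Hnf4a, a transcription factor of islet and liver, fell by 1.36 on the log2 scale (adjusted p = 0.0183). The arrays of WT and ob/ob islets did not overlap for any of these 4 genes (41.2% of all probes), and neither did those of WT and POKO (34.8%). The 4 genes were named for their small p values, so that separate arrays follow largely from that choice. Both comparisons also share the WT arrays. Against WT the POKO differences were 1.41 for Tnfrsf11b (adjusted p = 0.0745), 1.44 for Mki67 (0.0844), 1.36 for Ffar2 (0.0841) and -0.96 for Hnf4a (0.105), so that none was called. Bcl6, a transcriptional repressor, differed by -0.12 (adjusted p = 0.491). Men1, encoding menin, differed by 0.07 (adjusted p = 0.791).

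**Figure D4:**
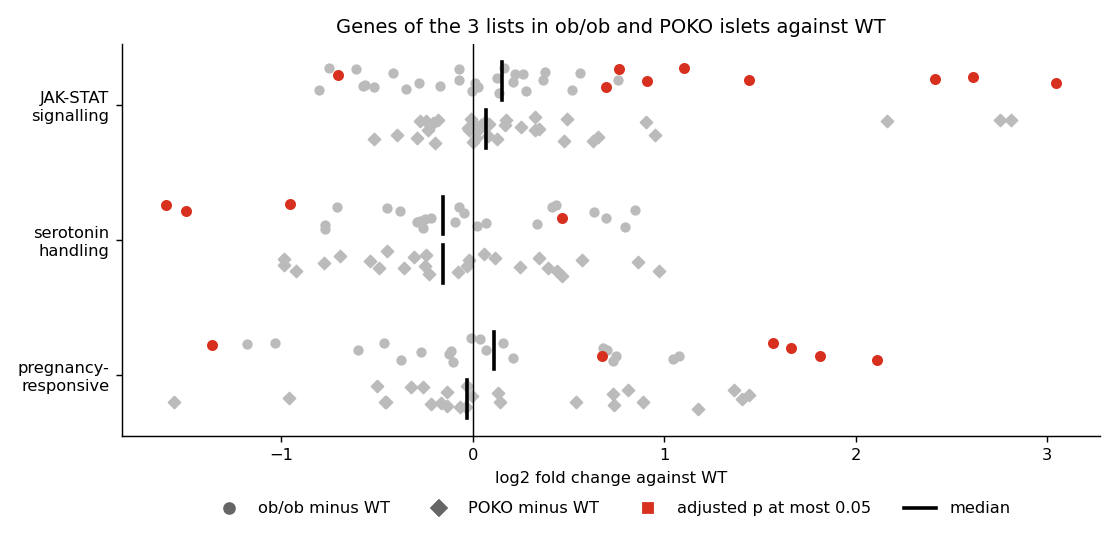
Log2 fold changes against WT of the measured genes of the 3 lists, circles for ob/ob and diamonds for POKO, with red for an adjusted p of at most 0.05 and a black bar for the median. Red points are seen for ob/ob only; the 3 medians in ob/ob are 0.15, -0.15 and 0.11.

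Markers of other cells moved with the genotypes, and their part in the results above was not tested. Of 10 T cell markers 8 rose in ob/ob against WT islets, and of 7 B cell markers 4, beside 11.1% of all probes called. The summed signal of the T cell markers, as log2, was 8.86 to 8.90 in WT, 8.29 to 10.72 in PPARγ2KO, 10.32 to 11.76 in ob/ob and 9.52 to 11.28 in POKO islets, and 5 of the 10 were below background on all WT arrays. The WT sum was mostly Cd3e, which went the other way, at 8.25, 8.33 and 8.08 in WT and 6.09, 6.65 and 7.46 in ob/ob islets (-1.48, adjusted p = 0.118). The sum of the B cell markers was 6.49 to 6.76 in WT, 6.04 to 11.46 in PPARγ2KO, 10.29 to 11.90 in ob/ob and 10.17 to 11.76 in POKO islets, with 3 of 7 below background on all WT arrays. Within PPARγ2KO islets Socs1, which lymphocytes express, was lowest (7.32) where the B cell sum was lowest (6.04) and highest (9.09) where that sum was highest (11.46). The obese genotypes did not repeat this order. In ob/ob islets the array with the lowest B cell sum (10.29) had the highest Socs1 signal (8.84). In POKO islets the lowest B cell sum (10.17) likewise went with the highest Socs1 signal (9.13).

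Of 4 duct markers Krt19, Sox9 and Cftr fell in ob/ob against WT islets (11.1% of all probes called), while Krt7 differed by 0.54 (adjusted p = 0.153). Their sum, which is mostly Krt19, was 15.90 to 16.26 in WT, 15.68 to 16.08 in PPARγ2KO, 14.37 to 15.21 in ob/ob and 15.01 to 15.47 in POKO islets. The array with the lowest duct sum, ob/ob replicate 3, was also the one with the lowest Socs2 signal. Of 4 endothelial markers all 4 were higher in ob/ob than in WT islets at an unadjusted p under 0.05 (31.1% of all probes). Their median difference was 1.00, and Cdh5 was called by limma (1.17, adjusted p = 0.025). Cdh5 and Pecam1 were also called in obese against lean islets (9.04% of all probes), where Socs3 rose. The endothelial sum was 11.04 to 12.27 in WT, 11.84 to 12.31 in PPARγ2KO, 12.35 to 12.67 in ob/ob and 12.01 to 12.41 in POKO islets. The mast cell sum was 6.28 to 6.88 in WT, 6.25 to 7.29 in PPARγ2KO, 7.42 to 7.91 in ob/ob and 7.27 to 7.79 in POKO islets. Of its 5 measured markers 4 were below background on all WT arrays. The rise of the sum was not shared by most of them. In ob/ob against WT islets 2 of the 5 were higher (median difference -0.08). Of the 5, 1 was called higher and 1 lower (11.1% of all probes called). All 7 acinar markers were well above background on all arrays, with 0 called in ob/ob against WT. Their sum, 20.76 to 20.98, exceeded the beta cell sum on every array.

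Hormone cell markers moved as well. The beta cell markers summed to 19.27, 19.36 and 19.74 in the WT arrays and to 19.75, 19.85 and 19.82 in the ob/ob arrays. WT replicate 1 had the lowest beta cell sum and the lowest Ddc and Ghr signals of all 12 arrays, and WT replicate 3 had the highest beta cell sum and the highest Prlr, Ghr and Ddc signals in WT. The POKO arrays summed to 19.63 to 19.68. This sum is nearly all Ins1 and Ins2, so that it hides the other markers. Ins2 read 18.90 or 18.95 on every array, so that the sum varied mainly with Ins1. None of the 9 measured beta cell markers was higher in POKO than in ob/ob islets (median difference -0.82). Of them 3, Nkx6-1 (-0.84), Pdx1 (-0.62) and Ucn3 (-1.79), had an unadjusted p under 0.05 (9.28% of all probes), with 0 called by limma. Against WT the median in POKO was -0.48, with 3 lower and 1 higher at an unadjusted p under 0.05 (16.4% of all probes). Of 4 delta and PP cell markers 0 were higher in POKO than in ob/ob islets (median -0.64). Sst, Ppy and Rbp4 had an unadjusted p under 0.05 (9.28% of all probes), with 0 called. Their sum was 15.97 to 16.47 in POKO and 16.86 to 17.17 in ob/ob islets. Prlr, Ghr and Ddc were lower in POKO than in ob/ob islets too.

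**Figure D5:**
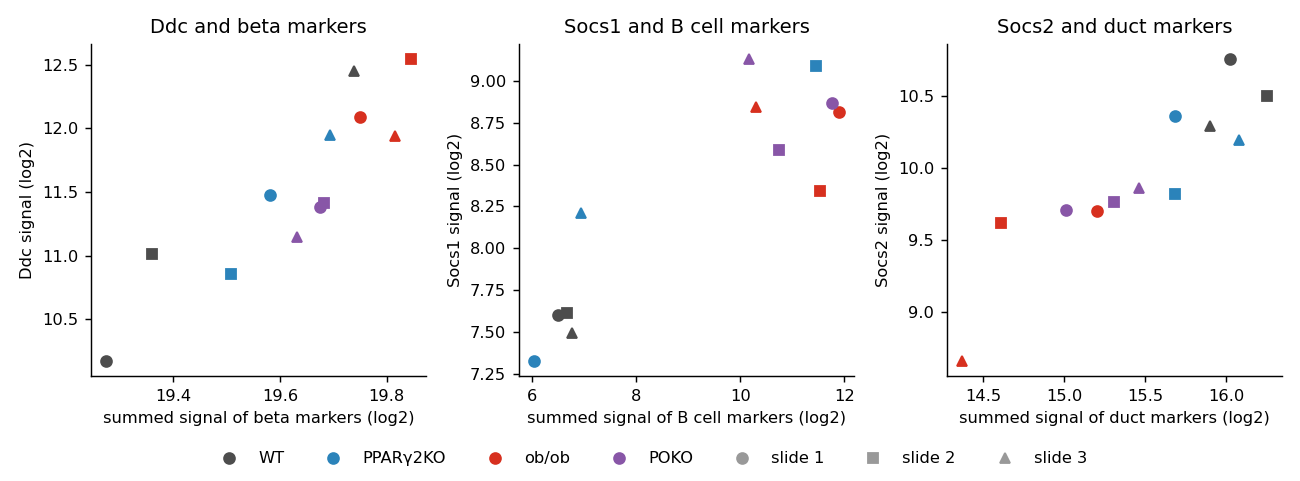
Log2 signal of Ddc, Socs1 and Socs2 on each array against the summed log2 signal of beta cell, B cell and duct markers on the same array; colours give the genotype and symbols the slide. The beta cell sum is nearly all Ins1 and Ins2, of which Ins2 read 18.90 or 18.95 on every array, and the duct sum is mostly Krt19. The lowest Ddc value (10.17) lies at the lowest beta cell sum (19.27) and the lowest Socs2 value (8.66) at the lowest duct sum (14.37).

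The genes whose pattern over the 12 arrays was most like that of each listed gene were sought among 11698 named genes above background on all arrays, as a description only, since the arrays share genotypes and slides. For Prlr they were Uso1 (Pearson r = 0.977), Apbb1 (0.974) and Zmynd8 (0.970). For Ghr they were Nkx2-2 (0.976), Pcsk1n (0.976) and Bhlhb9 (0.972), and for Ddc St18 (0.967), Sez6l (0.966) and Ociad2 (0.965). Socs2 was followed by Pigw (0.977), Fzd3 (0.969) and Itgb4 (0.965), and Cish by Osbpl5 (0.953), Otud5 (0.952) and Shtn1 (0.947). Socs1 was followed by Rgs1 (0.962), Iigp1 (0.957) and Zc3hav1 (0.954), Socs3 by Mdp1 (0.962), Cebpd (0.962) and Pecam1 (0.956), and Stat5a, less closely, by Ercc4 (0.917), Mill2 (0.894) and Rnf14 (0.894). No gene was named for more than 1 of the 8.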

How the data were processed

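RNA from pooled islets was labelled with Cy3 and hybridised to Agilent 4x44K 1-colour arrays, 12 in all. Per the labels and file headers, the authors read the scanned images with Agilent Feature Extraction 10.1.1.1. The deposited intensity values are its processed signal, median signal and median background. The authors also deposited log2 values that they had quantile-normalized.

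Here the processed signal of 43379 non-control spots was quantile-normalized, 919 outlier spots were set aside (0 of them on listed genes, 0 saturated), and replicate spots were averaged as log2 values. limma 3.58.1 (R 4.3.3) fitted genotype alone, since the authors' array block could not be fitted with 1 sample per array. Probes were named by RefSeq accession (25097 of 41174). From each list of related genes those called were named, at most the 4 with the smallest p, besides genes named in advance; Stat5b and Jak2 were among these, and 1 gene that this rule names is not reported here. The script was tested on simulated data. The listed genes, lists and tests were chosen with earlier results of these data known. Nothing says that pools of 1 genotype shared no animals or culture, so p-values measure the spread between these samples. Only 3 arrays per genotype limit the precision.

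Alternatives were the 75th percentile shift, normexp (offset 50, on median signal, as no mean signal was at hand), a filter on dim probes, outlier spots kept, fewer arrays, the slide as replicate block, array weights, the authors' log2 values, a fold criterion (absolute log2 of at least 1), the mean of a gene's probes and each array left out. Replicate numbers were slides; deviations of same-numbered arrays correlated at -0.13 to 0.18, over 0.1 in 4 of 18 pairs.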

Additional observations from a re-analysis of the deposited data

How the results depend on the processing

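The number of listed genes called in ob/ob against WT islets, 1, became 2 with the 75th percentile shift, with normexp and with the replicate block (slide), which added Socs3 (adjusted p = 0.0397) and changed no other call among these genes, 3 with dim probes filtered out, 7 with array weights and 0 with the arrays compared alone. Leaving out single arrays gave 0 to 6. In obese against lean islets the 3 calls became 0 with the fold criterion and 0 to 3 with single arrays left out. In POKO against WT islets 0 became 2 with array weights, 1 with the arrays compared alone, and 0 to 1 with single arrays left out. The other 4 comparisons stayed at 0 called genes in all alternatives.

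All 9 genes kept their direction in ob/ob against WT and in obese against lean islets under every alternative that gave a value. In POKO against WT islets small uncalled differences turned sign: Ddc with the 75th percentile shift (-0.025), Stat5a with normexp (-0.0024), and, over the single arrays left out, Prlr (-0.0984 to 0.51), Ghr (-0.14 to 0.38), Ddc (-0.42 to 0.72) and Cish (-0.11 to 0.038). So did Tph1 in POKO against ob/ob (-0.19 to 0.48) and Men1 in ob/ob against WT (-0.0833 to 0.19) with arrays left out, and Slc6a4 in ob/ob against WT with the 75th percentile shift (0.0173). The cause was not tested.

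The 75th percentile shift moved the median difference of all probes in ob/ob against WT from -0.08 to -0.19 and the share of higher among called probes from 44.5% to 55.0%; with array weights 11761 and not 4555 probes were called. Among the other genes named in ob/ob against WT, of 22 alternatives Tnfrsf11b stayed called in 21, Ffar2, Mki67 and Il2rg in 18, Hnf4a in 17, Ifngr1 in 15, Il7r in 11, Htr2b in 8 and Gch1 in 5; with the replicate block Gch1 (adjusted p = 0.0578) and Il7r (0.0591) were not called. The JAK-STAT list (8 higher, 1 lower) became 5 and 0 with the fold criterion and 13 and 6 with array weights, and in obese against lean islets its 9 became 5 with the 75th percentile shift, 3 with the fold criterion and 14 with array weights. The serotonin list (1 and 3) became 0 and 0 with the 75th percentile shift and with normexp, 0 and 2 with the fold criterion and 3 and 6 with array weights, and the pregnancy list (5 and 1) 9 and 2 with dim probes filtered out and 10 and 4 with array weights. Signal over background limits Tph1, Lepr and most serotonin receptors.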
